A study of Danio rerio with 12 samples.

Results

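Regions of open chromatin called in both mCherry-negative cell fractions of the zebrafish embryo, and in neither mCherry-positive fraction, are described here. A region was chosen when a double negative peak on chromosomes 1 to 25 overlapped a GFP only peak by at least 1 bp and overlapped no double positive or mCherry only peak. The class holds 14638 of the 166282 double negative peaks on those chromosomes (8.80%, Wilson 95% interval 8.67 to 8.94), and the 4 lists of the study hold 529602 peaks in all. Overlap between the lists chose the regions, so heights and distances are given as a description, with no test.

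The open chromatin of sorted cells was profiled by ATAC-seq in 12 samples of wild-type zebrafish embryos at 72 hours post fertilisation, untreated, that were double transgenic for kdrl:mCherry and sele:GFP. The 4 fractions, of 3 samples and 12000 to 50000 cells each, were cells with both reporters (double positive), with mCherry and no GFP (mCherry only), with GFP and no mCherry (GFP only) and with neither (double negative). All were sorted from homogenised whole embryos, so that a fraction is defined by its gate alone, and the double negative gate took every other kind of embryonic cell. The labels name 1 peak list for all 3 samples of a fraction, which leaves no replicate check, and intervals cover counting error only.

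In ATAC-seq, the Tn5 transposase inserts sequencing adapters where DNA is not wrapped tightly in nucleosomes, so that peaks mark promoters, enhancers and other accessible elements. The product of kdrl is a VEGF receptor of the vascular endothelium, where the kdrl promoter drives mCherry. The product of sele is E-selectin, through which endothelium binds passing blood cells, and GFP without mCherry therefore marks cells that switch on the sele transgene without the general endothelial reporter. The data cannot tell apart a region open in more cells of a fraction and a region more open in each cell. No genome sequence or gene annotation of the danRer7 build was used here, so regions are given by position and not by gene, exon or intron, and no sequence is shown.

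Signal is given as reads at the summit, recovered from the authors' fold and −log10 p, and as height, which is those reads divided by the lowest expected background of the same list. That background was 3.63 reads in double positive, 4.46 in mCherry only, 4.26 in GFP only and 4.47 in double negative. A region missing from a list is not called there, which does not show that it is closed. The fewest reads at a called summit were 10 in double positive and 11 in every other list. The lowest height called was 2.75 in double positive, 2.47 in mCherry only, 2.58 in GFP only and 2.46 in double negative.

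Of the members, 14529 overlapped 1 GFP only peak and 109 overlapped 2, in which case the taller was used. Seen from the other side, 14865 GFP only peaks overlapped a double negative peak and no mCherry-positive peak, 10.7% of that list (10.6 to 10.9). Of these GFP only peaks, 96 overlapped 2 double negative peaks, so neighbouring members can share a GFP only peak. The members covered 5.56 of the 73.1 Mb under double negative peaks (7.60%). In 358 members (2.45%, 2.21 to 2.71) the GFP only peak was long enough to reach a mCherry-positive peak that the double negative peak did not reach. Most double negative peaks belonged elsewhere: 55667 (33.5%) were called in all 4 lists, 51181 (30.8%) in double negative alone, and 20973 (12.6%) in every list but double positive. The mirror class, called in both mCherry-positive lists and in neither mCherry-negative list, held 8779 mCherry only peaks.

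Summits of the paired peaks lay a median of 61 bp apart (quartiles 21 and 127), against 24 bp (8 and 66) for GFP only and double negative peaks in all 4 lists. They were within 50 bp of each other in 44.8% of members and more than 200 bp apart in 12.9%. The paired peaks shared a median of 237 bp (200 and 301), and 261 members shared fewer than 50 bp. The shared stretch was a median of 0.604 of the joint length, against 0.790 in regions of all 4 lists.

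Members were low in both lists. In GFP only the median height was 4.46 (quartiles 3.75 and 6.10, highest 44.3), with a median of 19 reads at the summit (16 and 26, range 11 to 189). In double negative it was 4.93 (4.03 and 6.49, highest 44.3), with a median of 22 reads (18 and 29, range 11 to 198). Regions of all 4 lists had medians of 8.91 in GFP only and 9.85 in double negative. Peaks of a list alone stood close to the members, at a median of 4.46 for peaks called in GFP only alone, against 4.48 for those called in double negative alone. The mirror class was higher, with medians of 6.88 in double positive and 6.50 in mCherry only. Those lists were also higher as a whole, with medians of 7.16 in double positive and 6.28 in mCherry only. The whole-list medians were 5.86 in GFP only and 5.82 in double negative.

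In both lists tall peaks were less frequent among the members than over the whole list, and the share was lower in double negative. A height of 10 or more was reached by 1397 members in GFP only (9.54%, 9.08 to 10.03) and by 794 in double negative (5.42%, 5.07 to 5.80), against 23.2% of all GFP only peaks and 21.9% of all double negative peaks. A height of 20 or more was reached by 257 members in GFP only (1.76%) and by 13 in double negative (0.0888%), against 5.58% of all GFP only peaks and 5.41% of all double negative peaks. Peaks called in a single list differed in the same direction, with 9.17% of GFP only alone at a height of 10 or more, against 3.61% of double negative alone, and 0.524% against 0.0391% at a height of 20 or more. Among double negative peaks, the share that were members declined with height, from 12.6% below a height of 4 through 6.89% at heights of 8 to 10 to 0.144% at 20 or more. Among GFP only peaks, those that overlapped a double negative peak and no mCherry-positive peak made up 19.1% below a height of 4. They made up 5.48% at heights of 8 to 10 and 3.05% at 20 or more.

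A member that was tall in either list was seldom tall in the other. Only 93 members (0.635%, 0.519 to 0.778) reached a height of 10 in both, whereas 21.1% of all 93315 double negative peaks with a GFP only peak did. The members' share was 1.60% with −log10 q of 5 or more in every list, 2.01% with a mutual overlap of 50%, and 2.74% with lists of equal length, against 16.4% to 18.6% in the mirror class under the same settings. These 3 settings also loosen the exclusion, so their members can overlap a mCherry-positive peak of the full lists. With mCherry-positive peaks within 1 kb counted as overlap, which tightens it, the members' share was 0.431%. As the rule stands, 1054 of 8779 regions of the mirror class reached a height of 10 in both of their lists (12.0%, 11.3 to 12.7), against 33.2% of all mCherry only peaks with a double positive peak. A height of 6 or more in both lists was found in 1386 members (9.47%) and in 43.6% of the mirror class, and 7431 members (50.8%) were under 6 in both lists, against 24.8% of the mirror class. A height of 10 was reached in GFP only but not in double negative by 1304 members (8.91%), against 9.89% of regions of all 4 lists. The other way round it was reached by 701 members (4.79%), against 14.6% of regions of all 4 lists. For the height of 6, and for the height of 10 in a single list, shares over all 93315 pairs are not given here. Those counts are therefore not shown to be particular to the members.

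Given a height of 10 or more in GFP only, the double negative peak of the same member had a median height of 4.93 (quartiles 4.03 and 6.49), the same as over all members. Regions of all 4 lists selected in that way had a median of 15.2. Given a height of 10 or more in double negative, the GFP only peak had a median of 4.69 (3.75 and 6.57), against 13.6 in all 4 lists. Selecting members by a tall peak in GFP only thus left their double negative median where it was.

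**Figure D1:**
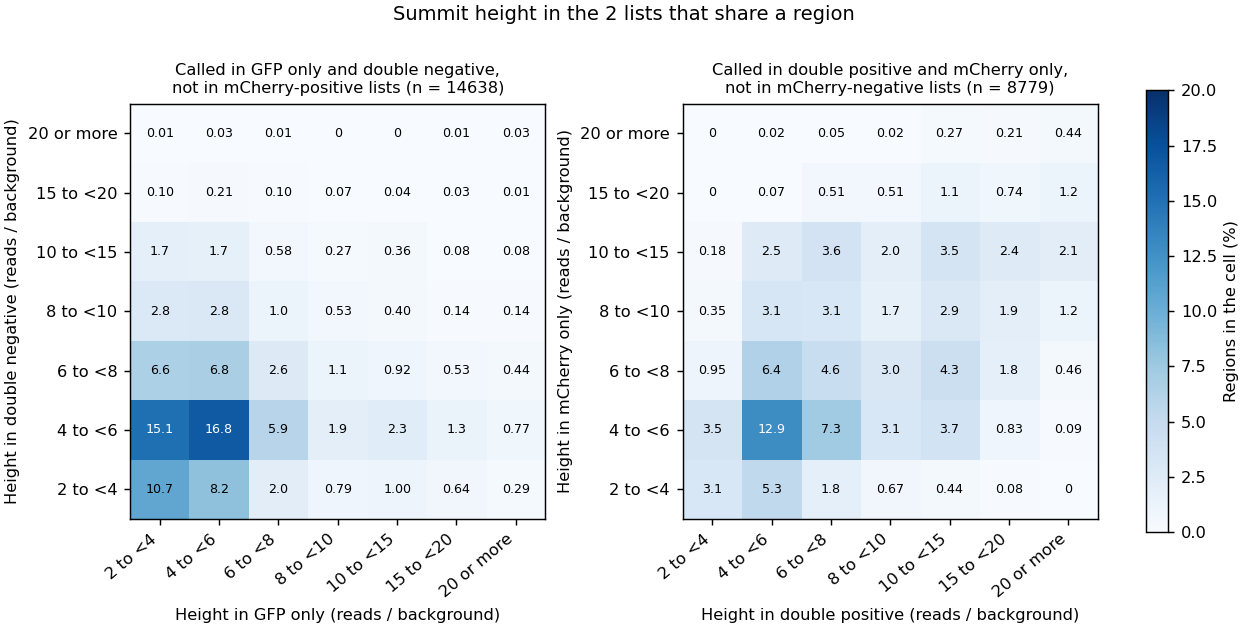
Share of regions (%) by summit height (reads over background) in the pair of lists that shares them, for the 14638 members at left, with GFP only on the x axis and double negative on the y axis, and for the 8779 regions of the mirror class at right, with double positive on the x axis and mCherry only on the y axis. Members gather in the low corner, where 16.8% had heights of 4 to 6 in both lists, while the mirror class extends along the diagonal.

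Many of the members tall in both lists stood on a high local background. The expected background was at least 3 times the lowest of the list, in both lists, for 41 of the 93, and for 80 of all 14638 members (0.547%). Those 80 had median folds of 2.50 in GFP only and 2.29 in double negative over that local background, and lay a median of 900 bp from a mCherry-positive peak (25 to 3566). The tallest member by the geometric mean of both heights, chosen after its values were seen, lay on chromosome 16 from 16635428 to 16635645. It had 189 reads in GFP only (exact Poisson 95% interval 163 to 218) and 198 in double negative (171 to 228), over expected backgrounds of 118 and 121 reads, which gave folds of 1.60 and 1.63. The next, on chromosome 4 from 27870901 to 27871121, had 188 reads in GFP only and 176 in double negative. Over members with a background below 3 times the lowest in both lists, 37 of 14388 were tall in both (0.257%, 0.187 to 0.354), against 755 of 8294 in the mirror class (9.10%, 8.50 to 9.74). Such a background was thus found in 37 of the 93 members tall in both and in 755 of 1054 regions of the mirror class. The share over all double negative peaks with a GFP only peak that were tall in both is not given here.

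By the authors' fold, which uses the local background, members strong in both lists were again few. A fold of 6 or more in both lists was found in 119 members (0.813%), against 22.4% of all double negative peaks with a GFP only peak. These 119 lay a median of 5008 bp from a mCherry-positive peak. A fold of 8 or more in both was found in 6 members, against 10.5% of all such pairs and 296 regions of the mirror class (3.37%). The 6 are named after their values were seen, as the members with a fold of 8 or more in both lists, and not those with the most reads. The region on chromosome 23 from 7229593 to 7230133 had 56 reads in GFP only (42.3 to 72.7), against 57 in double negative (43.2 to 73.9), with folds of 10.8 and 10.6. That on chromosome 20 from 11044221 to 11044788 had 58 reads in GFP only and 59 in double negative. On chromosome 8 there were 47 and 56 reads from 4317422 to 4317881, and 52 and 54 reads from 10694199 to 10694693, GFP only first. On chromosome 3 from 31298566 to 31299018 there were 56 reads in GFP only and 49 in double negative, and on chromosome 9 from 52262666 to 52263151 there were 49 and 53. The nearest mCherry-positive peak of these 6 regions was 2870 to 16977 bp away, and the read intervals of the lists overlapped in each. The choice by a high fold in both lists favours such overlap, which is therefore no test.

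Over the class as a whole, height in GFP only was close to height in double negative. The ratio of GFP only to double negative had a median of 0.977 (quartiles 0.698 and 1.31, range 0.157 to 8.62), and 0.945 in regions of all 4 lists. It lay within 2-fold in 11812 members (80.7%). It was 2 or more in 1444 members (9.86%, 9.39 to 10.4), against 5.96% of all double negative peaks with a GFP only peak. It was 1/2 or less in 1382 members (9.44%, 8.98 to 9.93), against 10.7% of all such pairs, a share near that background. Leaving out the members whose GFP only peak reached a mCherry-positive peak, 9.57% had a ratio of 2 or more and 9.64% of 1/2 or less. Of all members, those with such a GFP only peak included, 1325 had a geometric mean height of 8 or more. Their median ratio was 1.98 (0.945 and 3.46), and 656 of them (49.5%) were at least 2-fold higher in GFP only. Regions of all 4 lists selected in the same way had a median ratio of 0.932, and 1678 of 33567 were at least 2-fold higher in GFP only. Values over all double negative peaks with a GFP only peak at that cut are not given here. A height of 10 or more was reached by 1397 members in GFP only and by 794 in double negative. How far the cut favours pairs higher in GFP only was not tested.

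The members at least 2-fold higher in GFP only had a median of 58 reads there (25 to 145) and 19 in double negative (12 to 52). Those at least 2-fold lower had a median of 16 reads in GFP only (11 to 35), against 42 in double negative (26 to 116). Median widths followed the heights, with 504 bp in GFP only and 281 bp in double negative for the higher group, and 262 bp and 549 bp for the lower group. The higher group lay a median of 2995 bp from a mCherry-positive peak and the lower group 3897 bp.

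The region with the highest fold in GFP only lay on chromosome 19 from 20949594 to 20949922. It had 97 reads in GFP only (78.7 to 118), a fold of 17.8, and 22 reads in double negative (13.8 to 33.3), a fold of 4.21. The nearest mCherry-positive peak was 12821 bp away. On chromosome 6 from 56287039 to 56287397 there were 89 reads in GFP only (71.5 to 110), against 37 in double negative (26.1 to 51.0). Chromosome 14 held 3 of the 10 leading regions. The region from 22188722 to 22189012 had 108 reads in GFP only and 19 in double negative, that from 8968876 to 8969127 had 114 and 19, and that from 15351386 to 15351736 had 82 and 28. In all 5 regions the read intervals of the lists were apart. The choice by fold in GFP only favours this, so it is no test.

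The other leading regions of GFP only had the same form, except the tenth. On chromosome 4 from 857798 to 858041 there were 103 reads in GFP only and 24 in double negative, and on chromosome 16 from 21387123 to 21387473 there were 97 and 31. The region on chromosome 7 from 34804171 to 34804407 had 89 reads in GFP only and 16 in double negative, and that on chromosome 23 from 20681871 to 20682175 had 91 and 23, at 19017 bp from a mCherry-positive peak. The tenth, on chromosome 3 from 40048823 to 40049026, had the most reads, 142 in GFP only (120 to 167), against 23 in double negative (14.6 to 34.5). Its GFP only peak was 930 bp wide, had its summit 603 bp from the double negative summit and overlapped a mCherry-positive peak, which lay 91 bp from the double negative peak. Over the 10 regions the ratio of heights ranged from 2.52 to 6.46. The highest was that of the tenth, whose summits lay apart, and the next was 6.28.

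The regions with the highest fold in double negative lay on 10 different chromosomes. The first, on chromosome 22 from 17427656 to 17428379, had 20 reads in GFP only (12.2 to 30.9), against 111 in double negative (91.3 to 134), with folds of 3.68 and 12.9. Its nearest mCherry-positive peak was 1474 bp away. The region on chromosome 2 from 55201724 to 55202364 had 18 reads in GFP only and 80 in double negative, and that on chromosome 10 from 45731538 to 45731999 had 19 and 72. The remote regions among the 10 were on chromosome 21 from 27574458 to 27574902, with 21 reads in GFP only and 64 in double negative at 21813 bp, and on chromosome 11 from 17559178 to 17559865, with 18 and 63 reads at 26374 bp. The closest, on chromosome 7 from 20179809 to 20180357, had 16 reads in GFP only and 62 in double negative at 316 bp. The other 4, on chromosomes 5, 15, 17 and 25, had 15 to 20 reads in GFP only and 61 to 79 in double negative. The ratio of heights over the 10 ranged from 0.189 to 0.344.

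Members were narrow. Median width was 303 bp in GFP only (quartiles 237 and 405) and 335 bp in double negative (254 and 458), against 446 bp in GFP only and 503 bp in double negative for regions of all 4 lists. Peaks of GFP only alone had a median of 271 bp, and those of double negative alone 303 bp. The double negative peak was the wider of the pair in 8255 members (56.4%). The ratio of GFP only to double negative width had a median of 0.925 in members and 0.938 in regions of all 4 lists. The share over all pairs is not given here, so the wider double negative peak is not shown to be particular to the members. A width of 1 kb or more was found in 69 members in GFP only and in 114 in double negative (0.779%), against 6.78% of double negative peaks in all 4 lists. Of the 69, 36 had a GFP only peak that reached a mCherry-positive peak.

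Peaks of similar height were closer in width. At double negative heights of 4 to 5 the median width was 293 bp for members, 285 bp for double negative alone and 322 bp for regions of all 4 lists. At heights of 6 to 8 these were 415, 392 and 422 bp, and at heights of 10 to 15 they were 523, 472 and 550 bp. In GFP only, the 14865 peaks that overlapped a double negative peak and no mCherry-positive peak were used in place of the members' pairs. At heights of 4 to 5 they had a median of 283 bp, against 255 bp for GFP only alone and 325 bp for all 4 lists. At heights of 10 to 15 these were 446, 384 and 496 bp. These GFP only peaks lay between the other classes in every bin of GFP only height. In double negative the members did so in every bin but heights of 8 to 10. There members had 491 bp, double negative alone 438 bp and all 4 lists 472 bp.

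**Figure D2:**
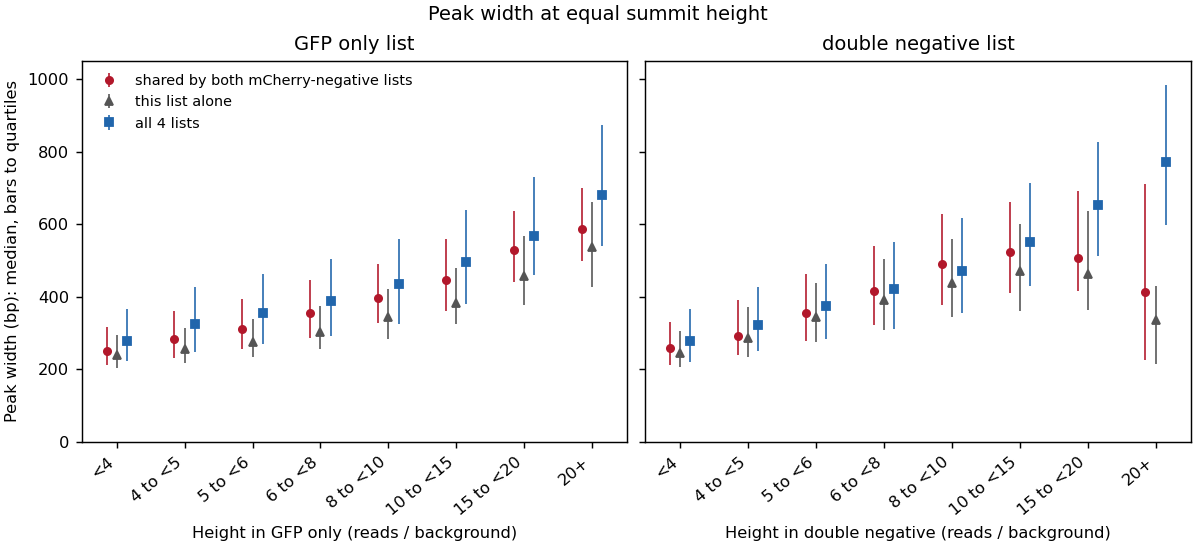
Median peak width (bp, bars to the quartiles) against summit height (reads over background), in the GFP only list at left and the double negative list at right, for members (circles), peaks of that list alone (triangles) and peaks of all 4 lists (squares). In the GFP only list, the circles are the 14865 GFP only peaks that overlapped a double negative peak and no mCherry-positive peak. Width rises with height in all 3 classes up to heights of 10 to 15. The circles lie between the other classes in every bin but double negative heights of 8 to 10.

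Most members lay a few kilobases from chromatin called in mCherry-positive cells. The gap between the edge of the double negative peak and the nearest mCherry-positive peak had a median of 3407 bp (quartiles 1793 and 7018, highest 69238). It was 3257 bp (1511 and 6820) for the peaks of GFP only alone, and 4069 bp (2013 and 8191) for those of double negative alone, which overlap no mCherry-positive peak either. The gap was at most 1 kb in 2123 members (14.5%, 13.9 to 15.1), in 17.0% of GFP only alone and in 12.5% of double negative alone. No mCherry-positive peak lay within 10 kb of 2203 members (15.05%, 14.5 to 15.6), against 14.7% of GFP only alone and 19.1% of double negative alone. The number without any within 20 kb was 504 (3.44%), against 3.55% of GFP only alone and 4.82% of double negative alone. For 50 kb it was 17 (0.116%), against 0.156% and 0.207% in the same order. Measured to double positive the median gap was 6349 bp, and measured to mCherry only, the longer list, it was 3833 bp. The nearest mCherry-positive peak was a mCherry only peak for 10829 members (74.0%), against 71.3% of GFP only alone and 74.4% of double negative alone.

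**Figure D3:**
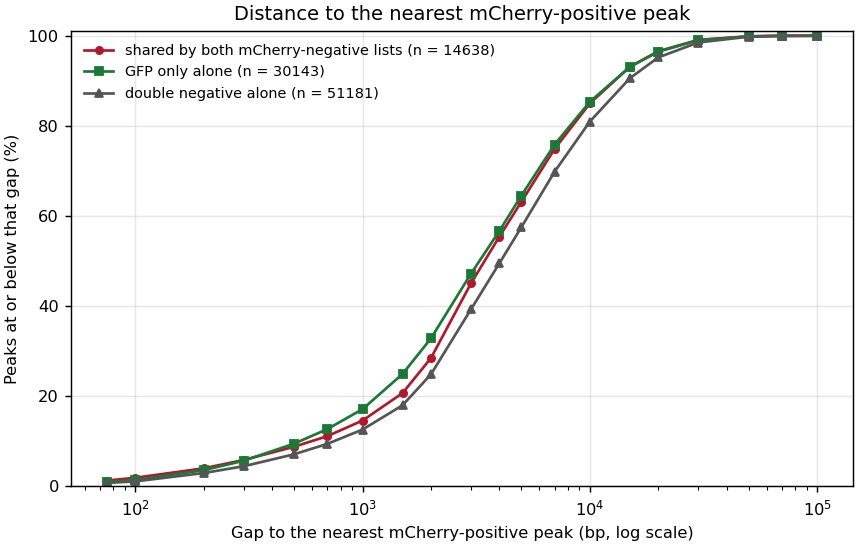
Cumulative share of peaks (%) by gap to the nearest mCherry-positive peak (bp, log scale) for the 14638 members, 30143 peaks of GFP only alone and 51181 of double negative alone. The members' curve lies near that of GFP only alone from 3 kb upwards, and double negative alone reaches the same shares at longer gaps.

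The gap was shorter for taller members at most heights. By GFP only height the median gap was 4540 bp below 4, 3497 bp at 4 to 5, 2929 bp at 5 to 6, 2522 bp at 10 to 15 and 2909 bp at 15 to 20. By double negative height it was 4186 bp below 4, 3457 bp at 4 to 5, 3179 bp at 6 to 8 and 2824 bp at 10 to 15. In the peaks of a list alone the gap was also shorter at greater heights, and at heights of 10 to 15 it was 2446 bp in GFP only alone, against 2495 bp in double negative alone. The nearest mCherry-positive peak itself had a median height of 4.96, and it overlapped a GFP only peak in 60.0% and a double negative peak in 69.1% of cases. In the lists as a whole 65.7% of mCherry only peaks and 72.5% of double positive peaks overlapped a GFP only peak, and 72.1% and 74.3% a double negative peak.

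At the edge of the rule, 116 members lay within 50 bp of a mCherry-positive peak and 157 GFP only and double negative pairs were left out for an overlap of at most 50 bp. Median heights were 4.69 in GFP only and 4.26 in double negative just inside, and 4.46 and 3.81 just outside. Just inside, 2 members touched a mCherry-positive peak with a gap of 0. That on chromosome 1 from 52758660 to 52758866 had 19 reads in GFP only and 18 in double negative, and that on chromosome 5 from 43947581 to 43947981 had 31 and 16. In both, the GFP only peak itself overlapped a mCherry-positive peak. At a gap of 1 bp were regions on chromosome 3 from 5174871 to 5175273, chromosome 7 from 64335197 to 64335869 and chromosome 10 from 29555492 to 29556231, with 15 to 18 reads in GFP only and 15 to 33 in double negative. Just outside, the regions on chromosome 14 from 15578098 to 15578309 and from 27011814 to 27012013 overlapped a mCherry-positive peak by 1 bp. They had 15 and 22 reads in GFP only, and 25 and 15 in double negative. The next were on chromosome 4 from 18458284 to 18458546 with an overlap of 2 bp, and on chromosome 7 from 54175450 to 54175735 and chromosome 17 from 1563591 to 1563862 with 3 bp, with 13 to 28 reads in GFP only and 15 to 24 in double negative.

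The members farthest from any mCherry-positive peak had ordinary heights. The region on chromosome 12 from 7413412 to 7413942 lay 69238 bp away and had 19 reads in GFP only and 27 in double negative. A pair of neighbours on chromosome 10, from 19931851 to 19932378 and from 19932466 to 19932669, lay 68887 and 68596 bp away. The first had 29 reads in GFP only and 27 in double negative, and the second 19 in each. The region on chromosome 7 from 2258972 to 2259305 lay 68435 bp away with 22 reads in GFP only and 15 in double negative, and that on chromosome 15 from 7337150 to 7337756 lay 65739 bp away with 17 and 29.

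Within 50 kb of a member the median numbers of peaks were 6 in double positive, 10 in mCherry only, 11 in GFP only and 14 in double negative. Around double negative alone they were 5, 8, 9 and 14 in the same order, and around regions of all 4 lists 9, 13, 13 and 14. Each count includes any peak of the region itself, so lists that define a class have at least 1 peak counted around it. Part of the difference between classes is therefore fixed by their definitions. Of the double negative peaks directly beside a member, 10.5% were members themselves (10.2 to 10.9), against 9.39% beside double negative alone and 8.80% in the list. Neighbouring members can share a GFP only peak, as 96 such peaks overlapped 2 double negative peaks. How far this raises the share was not tested. Peaks of double negative alone made up 32.8% of the members' neighbours and 41.1% of their own, and peaks of all 4 lists made up 28.4% and 23.3%.

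Most members had no other member close by, but whether they cluster more or less than randomly placed regions was not tested. The next member's summit lay a median of 26919 bp away (quartiles 10910 and 58137), and 10.9% of members had another within 5 kb. With summits joined into chains where neighbours were within 20 kb, 8619 members (58.9%) stood alone, 1812 chains held 2 members, 518 held 3 and 134 held 4. Runs of 5 or more numbered 56 on 22 chromosomes and held 305 members (2.08%). The mirror class, with fewer regions, formed 48 runs holding 2.98% of its regions, and 58.8% of them stood alone. Double negative alone, with 51181 peaks, had 45.4% of them in runs. Runs were 15.8 to 77.7 kb long, with a median of 9 GFP only peaks, 10 double negative peaks, 3 mCherry only peaks and 2 double positive peaks inside them. No mCherry-positive peak was called in 2 of the 56 runs.

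The runs with the most members held 8 each. On chromosome 7 from 37499596 to 37563172, the members had 17 to 107 reads in GFP only and 16 to 40 in double negative, and lay 698 to 9380 bp from a mCherry-positive peak. That stretch held 15 GFP only peaks and 19 double negative peaks, beside 6 from mCherry only and 4 from double positive. On chromosome 13 from 29363371 to 29417424, the members had 15 to 57 reads in GFP only and 19 to 41 in double negative, in a stretch with 14 GFP only peaks, 15 double negative peaks, 4 mCherry only peaks and 2 double positive peaks. On chromosome 15 from 23762690 to 23812203, the members were low, with 14 to 22 reads in GFP only and 21 to 34 in double negative. Only 1 double positive and 2 mCherry only peaks lay in those 49.5 kb. In that run, 2 adjacent members overlapped the same GFP only peak.

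**Figure D4:**
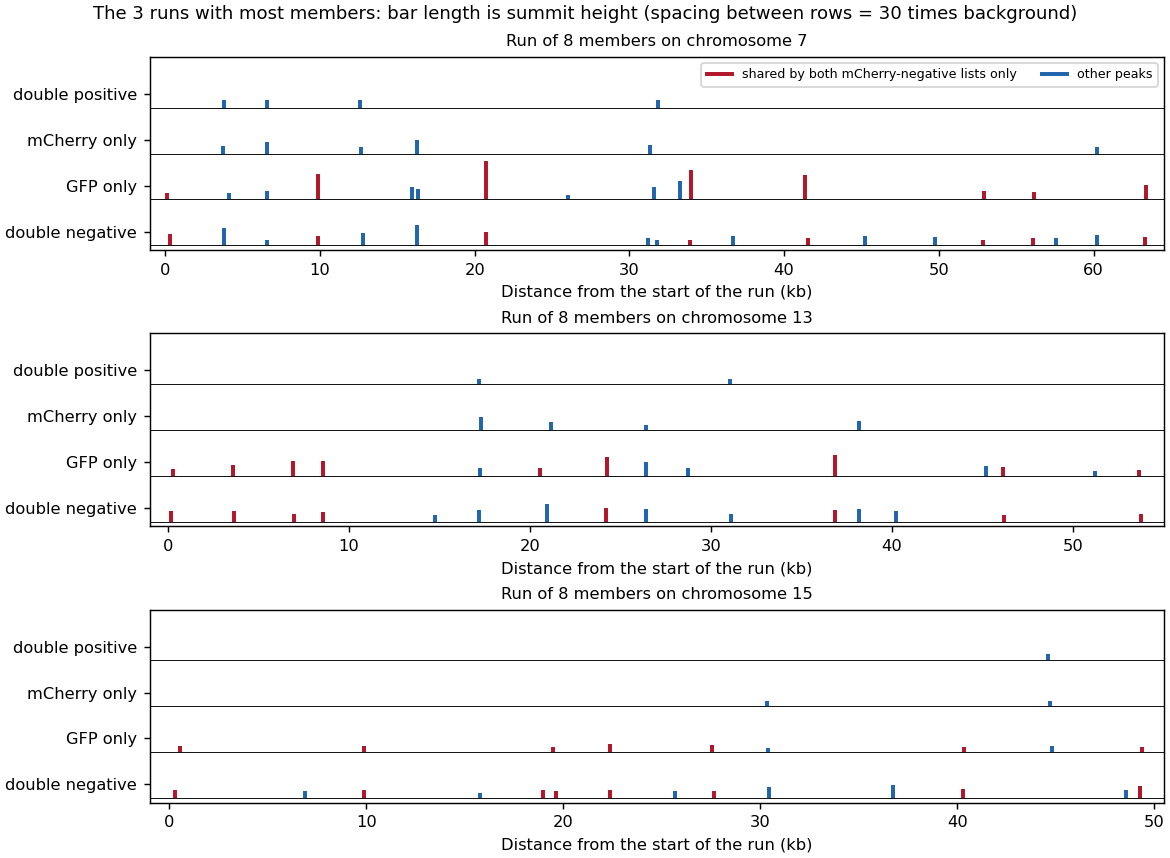
Peaks of the 4 lists along the 3 runs with the most members, with distance from the start of the run (kb) on the x axis, a row for each list, and bar length for summit height (reads over background; the spacing between rows is 30 times background). Members are red and other peaks blue; the run on chromosome 7 has up to 107 reads in GFP only, and the run on chromosome 15 has 1 double positive and 2 mCherry only peaks.

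Members higher in GFP only lay near others of their kind more often than members lower in GFP only did. Another of the same kind was within 20 kb for 292 of the 1444 that were at least 2-fold higher (20.2%, 18.2 to 22.4) and for 128 of the 1382 that were at least 2-fold lower (9.26%, 7.84 to 10.9). Within 5 kb these shares were 6.65% and 2.17%. No such shares over all double negative peaks with a GFP only peak are given here, so the difference is not shown to be particular to the members. The longest chains, chosen after their values were seen, held 4 members of the higher kind. That on chromosome 1 from 7173318 to 7214967 had 41 to 104 reads in GFP only and 17 to 20 in double negative, in a stretch with 10 GFP only peaks, 6 double negative peaks, 2 mCherry only peaks and no double positive peak. Others lay on chromosome 7 from 37509301 to 37541282, inside a run of 8 members, with 69 to 107 reads in GFP only and 16 to 40 in double negative, and on chromosome 12 from 3976496 to 3995575, with 61 to 109 and 16 to 31. The longest of the lower kind held 3 members, on chromosome 7 from 38326581 to 38349864 with 14 to 15 reads in GFP only and 34 to 48 in double negative, and on chromosome 13 from 26666275 to 26679719 with 13 to 16 and 35 to 47.

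Members were spread over all 25 chromosomes, with 349 on chromosome 22 to 807 on chromosome 7, and a median over chromosomes of 10.8 per Mb (8.26 to 12.6). As a share of double negative peaks they were most frequent on chromosome 4 (10.7%, 10.04 to 11.5), followed by chromosome 9 (9.65%), and least frequent on chromosome 22 (7.15%, 6.46 to 7.91) and chromosome 5 (7.44%). Chromosome 4 did not lead on other scales: of GFP only peaks the class made up 12.5% on chromosome 9, 11.9% on chromosome 18, 11.8% on chromosome 14 and 11.7% on chromosome 4, and per Mb there were 12.6 members on chromosome 9, 12.5 on chromosome 18 and 12.4 on chromosome 4. On chromosome 4 they made up 11.9% of double negative peaks beyond 25 Mb (10.8 to 13.03) and 9.87% before it (8.99 to 10.8), against 8.72% on the other chromosomes. The order was different in the GFP only list, where the class made up 10.7% of peaks beyond 25 Mb, 12.7% before it and 10.7% on the other chromosomes. Of the 372 members beyond 25 Mb, 362 had heights within 2-fold of each other, 7 were higher in GFP only and 3 lower. Over all members 9.86% were at least 2-fold higher and 9.44% at least 2-fold lower. The shares over all pairs beyond 25 Mb are not given here, so this is not shown to be particular to the members.

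Among 264 windows of 5 Mb with at least 400 double negative peaks, the share of members ranged from 4.19% to 13.6% with a median of 8.74%. Of the 10 windows with the highest shares, 4 lay on chromosome 4, led by that from 40 to 45 Mb with 57 of 420 peaks (13.6%, 10.6 to 17.2). Those 4 windows held 408 to 438 double negative peaks, near the lower limit of 400. All 4 lay beyond 25 Mb, where the class made up 10.7% of GFP only peaks, the same as on the other chromosomes. The window from 20 to 25 Mb on chromosome 6 had 63 of 484 (13.02%, 10.3 to 16.3), and the lowest share was on chromosome 5 from 70 to 75 Mb, with 25 of 597 (4.19%, 2.85 to 6.11).

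**Figure D5:**
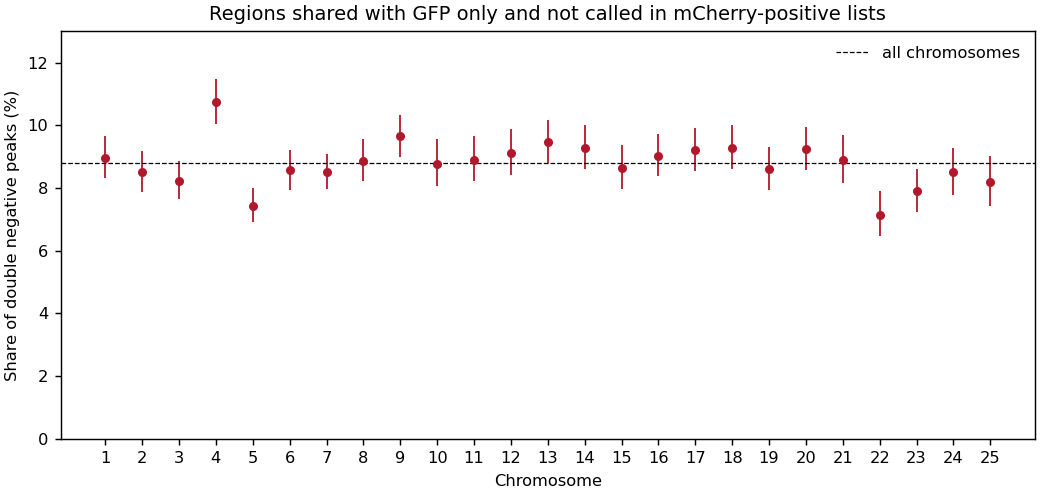
Members as a share of double negative peaks (%) on each chromosome, with Wilson 95% intervals for counting error, and the share over all chromosomes as a dashed line (8.80%). Chromosome 4 stands highest at 10.7%, and chromosomes 22 and 5 lowest at 7.15% and 7.44%.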

How the data were processed

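The submitters' processing notes name the tools MACS2 2.1.0 and Bowtie2 2.2.1, with danRer7 as the build. For settings, read filters, Tn5 shifts and pooling of samples, the sources used here give nothing. The lists the authors deposited give each peak a fold (a linear ratio over expected background), a −log10 p and −log10 q, a display score and a summit offset in bp. The score and −log10 q the authors deposited were not used further, except −log10 q in an alternative. Coordinates are printed 1-based. The 2 or 3 peaks per list outside chromosomes 1 to 25 were left out.

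Reads at each summit were taken as the whole number that, with its background, gives both the authors' fold (pseudocount 1) and −log10 p under a Poisson tail. The largest misfit was 0.000382 and that of the second-best number at least 0.0113. This model is inferred from the values. On simulated data, 100% of 20000 peaks per list were recovered, and 100% of 20000 simulated regions were put in the right class. That checks the computation only. Python 3.11.15, numpy 2.4.6, pandas 2.3.3 and scipy 1.17.1 were used.

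Samples were grouped by their titles. Named regions are the 10 with the highest fold in each list, the 3 runs with the most members, the 5 with the shortest and the 5 with the longest gap, and the 5 pairs just outside the rule. Exceptions are marked. The members, the lists compared and the thresholds were chosen with earlier results of these data known. Alternatives changed the −log10 q threshold, the overlap, list length, height, run gap and distance measure. Alternatives on fold, local background and GFP only peaks reaching a mCherry-positive peak, and all of those for the share tall in both lists, were added after seeing the data.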

Additional observations from a re-analysis of the deposited data

How the results depend on the processing

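No paired analysis was possible because each fraction has 1 peak list for all its samples, and for the same reason no sample could be left out in turn. The class held 14638 regions. It held 9332 with −log10 q of 5 or more in double negative, 9536 with that threshold in every list, 5226 with all lists cut to the 90687 strongest peaks and 93 with a height of 10 or more in both lists. The other 5 alternatives gave 12515 to 14520. In the order of −log10 q in double negative, −log10 q in every list, mutual overlap of 50%, mCherry-positive peaks within 1 kb counted as overlap, equal length, and height of 10 or more in both, the ratio of GFP only to double negative height (0.977) became 0.785, 0.995, 0.989, 0.952, 0.867 and 1.06. Median width (335 bp) became 391, 401, 346, 343, 452 and 327 bp. The 56 runs became 18, 19, 3 and 0 with −log10 q in double negative, −log10 q in every list, equal length and height, and 7 and 453 with gaps of 10 and 50 kb. The gap (3407 bp) became 4904 bp with −log10 q in every list, 2156 bp with mutual overlap, 4251 bp with the 1 kb margin, 4575 bp with equal length, 1525 bp with height, 3790 bp between summits and 3534 bp without the members whose GFP only peak reached a mCherry-positive peak. The share tall in both (0.635%) became 1.60% with −log10 q in every list, 2.01% with mutual overlap, 0.431% with the 1 kb margin and 2.74% with equal length.

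Of 6 alternatives that redefine the classes, all 6 kept a lower share tall in both in the class than in the mirror class and a shorter gap than in double negative alone. The gap was longer than in GFP only alone in 5, and shorter with mutual overlap (2156 against 2484 bp). The ratio of 2 or more was more frequent than that of 1/2 or less in 3, and less frequent with the 1 kb margin (9.68% against 10.1%), with equal length (8.52% against 10.1%) and without the members whose GFP only peak reached a mCherry-positive peak (9.57% against 9.64%). Mutual overlap, −log10 q in every list and equal length also let members overlap a mCherry-positive peak of the full lists. The last 2 of these settings remove mCherry-positive peaks to which the gap is measured. How far this changed the values was not tested, nor was any other cause. With a median of 19 reads in GFP only and 22 in double negative, the counting intervals of the lists overlap in a typical region that differs by under 2-fold.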
